A study of Mus musculus with 37 samples.

Results

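The genes described here are 2 epoxide hydrolases, Ephx1 and Ephx2, and 4 members of the Cyp4 family of cytochromes P450, Cyp4f18, Cyp4f13, Cyp4f16 and Cyp4v3. They were chosen by gene symbol, and all 6 were found among the 35885 genes of the deposited table. Values come from RNA sequencing of polyadenylated transcripts of whole femoral bone marrow (19 libraries) and whole spleen (18 libraries) of wild-type C57BL/6N mice. Controls met no social defeat, a stressor in which a mouse is confronted by an aggressor. Other mice met 1, 4 or 10 defeats, 1 a day, and a last group was left alone for 1 week after the 10th. Marrow held 3 control libraries, 4 after 1 defeat, 3 after 4 defeats, 5 after 10 defeats and 4 after rest, and spleen held 4, 2, 2, 6 and 4 of the same groups. The labels give neither the age of the mice nor whether marrow and spleen libraries with the same number came from 1 animal. Both tissues are mixtures of cell types, so fewer cells of a type and less RNA per cell cannot be told apart in any value below.

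Cells make epoxides of arachidonic acid and other fatty acids with cytochromes P450 called epoxygenases, and epoxide hydrolases open these short-lived epoxides into diols. Ephx2 is the soluble epoxide hydrolase, best known for this step, while Ephx1 is the microsomal enzyme, best known for detoxifying foreign epoxides and also able to open fatty acid epoxides. Cyp4 enzymes add a hydroxyl group at or near the far end of a fatty acid chain, and in mouse neutrophils Cyp4f18 acts in this way on leukotriene B4, an attractant of neutrophils. Cyp4f13 and Cyp4f16 are relatives of Cyp4f18, and Cyp4v3 is the mouse counterpart of human CYP4V2, a fatty acid hydroxylase whose mutation causes a crystalline disease of the retina in humans.

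On GRCm38 with the GENCODE M21 annotation, Ephx1 lies on chromosome 1 (180976210 to 181020904, minus strand) and Ephx2 on chromosome 14 (66084374 to 66124500, minus strand). Chromosome 17 carries Cyp4f16 (32536558 to 32551798, plus strand) and Cyp4f13 (32924688 to 32947402, minus strand) within a run of Cyp4f genes. Chromosome 8 carries Cyp4f18 (71988482 to 72009626, minus strand) and Cyp4v3 (45304944 to 45333216, minus strand). All 6 are protein-coding. How reads shared between related Cyp4f genes were divided is not stated, so their values carry that uncertainty. The far end of Cyp4f18 overlaps Zfp961 on the other strand.

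RefSeq promoters (GRCm38.p6, 250 bases before to 50 after the start) matched 5 of the 6 members. The 4 shown are those of Ephx1, the member that fell in both organs, and of the 3 Cyp4f genes, which are relatives. Capitals mark matches on either strand to the GC box (GGGCGG), the CCAAT box (CCAAT) and the TATA box (TATAAA). They also mark the xenobiotic response element (GCGTG), the antioxidant response element (TGACNNNGC) and the core bound by ETS factors (GAGGAA). The 4 promoters are, in order, chr1:181017520-181017819 on the minus strand, chr17:32536307-32536606 on the plus strand, chr17:32947312-32947611 on the minus strand and chr8:72009577-72009876 on the minus strand.
Ephx1: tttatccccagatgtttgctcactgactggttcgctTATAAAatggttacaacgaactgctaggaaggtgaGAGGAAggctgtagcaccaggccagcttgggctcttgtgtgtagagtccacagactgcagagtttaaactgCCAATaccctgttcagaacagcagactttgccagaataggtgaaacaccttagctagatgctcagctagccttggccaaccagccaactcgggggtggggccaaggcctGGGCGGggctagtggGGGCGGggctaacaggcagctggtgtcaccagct
Cyp4f16: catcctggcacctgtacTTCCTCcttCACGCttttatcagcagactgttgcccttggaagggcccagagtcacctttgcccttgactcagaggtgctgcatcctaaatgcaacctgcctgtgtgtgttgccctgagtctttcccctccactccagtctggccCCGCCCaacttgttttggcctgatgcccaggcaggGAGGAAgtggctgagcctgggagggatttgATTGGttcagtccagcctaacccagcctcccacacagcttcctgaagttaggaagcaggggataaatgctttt
Cyp4f13: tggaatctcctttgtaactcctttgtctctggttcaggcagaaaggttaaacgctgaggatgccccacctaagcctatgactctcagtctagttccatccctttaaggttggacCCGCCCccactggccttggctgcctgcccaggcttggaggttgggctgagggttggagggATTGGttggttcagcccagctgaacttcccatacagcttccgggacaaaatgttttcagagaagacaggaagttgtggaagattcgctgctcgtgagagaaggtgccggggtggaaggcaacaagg
Cyp4f18: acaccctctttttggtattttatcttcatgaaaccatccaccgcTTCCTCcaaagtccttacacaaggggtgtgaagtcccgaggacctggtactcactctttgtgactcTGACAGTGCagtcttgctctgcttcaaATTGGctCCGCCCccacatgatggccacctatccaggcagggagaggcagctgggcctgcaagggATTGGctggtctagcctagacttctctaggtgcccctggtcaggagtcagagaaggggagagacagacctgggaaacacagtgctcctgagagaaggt
Ephx1 held 2 GC boxes, 1 and 16 bases past its start, 1 CCAAT box, 1 TATA box at position -214 and 1 ETS core. Each of the 3 Cyp4f promoters held a GC box on the other strand (CCGCCC) followed by a CCAAT box on the other strand (ATTGG). From first letter to first letter the gap was 65 bases in Cyp4f16, 60 in Cyp4f13 and 58 in Cyp4f18. This pair at a gap of 50 to 70 bases was noticed in the sequences themselves, so its presence in them is no test. It occurred in 234 of 32851 promoters (0.712%). Of 12 promoter entries of Cyp4f genes, with Cyp4f14 and Cyp4f40 entered more than once, only these 3 held it. Among all promoters of this length, 35.7% held a GC box, 37.4% a CCAAT box, 13.6% a TATA box, 28.3% an ETS core, 32.4% a xenobiotic element and 12.4% an antioxidant element. The RefSeq start of Ephx1 lies inside its GENCODE span. No factor binding was measured.

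Low values step with transcript length as abundances per length do, so levels are set beside each other between genes on that scale. The exact quantity and its scaling per library are not stated. Changes are log2 differences of abundance + 1, with the standard error (SE) of the limma fit, and calls are those with a Benjamini-Hochberg adjusted p under 0.05 over all genes tested in a comparison. Estimated depth was 3.63 to 35.1 M reads a library (median 11.6 M). Summed values ran from 657918 to 2652290, and 5 spleen libraries stood apart (D6, D7, D9 and D10 after 10 defeats and D2 after rest). They had the highest sums, 45.4% to 58.8% haemoglobin and values that fell with transcript length. Results that rest on them are also given without them. That leaves only D4 and D5 of the spleens with 10 defeats, the lowest of that group in haemoglobin (11.5% and 24.5%). The labelled tissues held their defining cells: B cell marker sums were 2540 to 2714 in control spleens against 903 to 1285 in control marrow, and neutrophil marker sums were 238 to 490 against 59134 to 68452. Since liver is rich in both epoxide hydrolases, 7 hepatocyte markers were also summed, and they reached at most 1.46 in any marrow library and at most 18.96 in spleen (a control). Spleens of the stressed groups stayed at or under 2.43.

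In control tissues the members divided by organ. Ephx1 stood at 75.3, 67.8, 68.9 and 74.1 in control spleens, against 9.87, 10.6 and 9.80 in control marrow. Ephx2 was far less abundant, at 4.05, 4.42, 4.68 and 3.76 in spleens against 0.777, 0.616 and 0.790 in marrow, where a library held an estimated 5.14 to 54.6 reads of it (median 28.0). Neither hydrolase overlapped between the organs. Ephx1 was higher in spleen by 2.71 ± 0.39 (SE; limma adjusted p = 9.05e-07) and Ephx2 by 1.60 ± 0.20 (adjusted p = 6.06e-08).
Cyp4f18 ran the other way, at 37.9, 34.6, 38.8 and 40.9 in spleens against 88.1, 89.1 and 87.9 in marrow, a difference of -1.20 ± 0.22 (limma adjusted p = 3.02e-05) that lost its call with totals made equal (-0.95, adjusted p = 0.0585). It was the most abundant member in every marrow library, while in every control spleen that place belonged to Ephx1. Cyp4v3 was at 7.10, 8.36, 6.25 and 6.97 in spleens against 2.03, 2.06 and 2.69 in marrow, higher by 1.32 ± 0.24 (adjusted p = 3.53e-05). Cyp4f16 was at 11.8, 12.1, 12.9 and 16.4 in spleens against 7.41, 8.55 and 8.60 in marrow. The difference of 0.63 ± 0.22 (limma adjusted p = 0.0191) was not called without marrow C1 or spleen C4 (0.53 to 0.68 over the libraries left out) or with totals made equal (0.87). Cyp4f13 overlapped, at 13.1, 11.6, 12.1 and 19.2 in spleens against 16.2, 17.2 and 15.4 in marrow (-0.23 ± 0.26, adjusted p = 0.504). Thus 4 members were called higher in spleen and 1 lower, where 27.1% and 19.2% of all 14513 genes were.

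**Figure D1:**
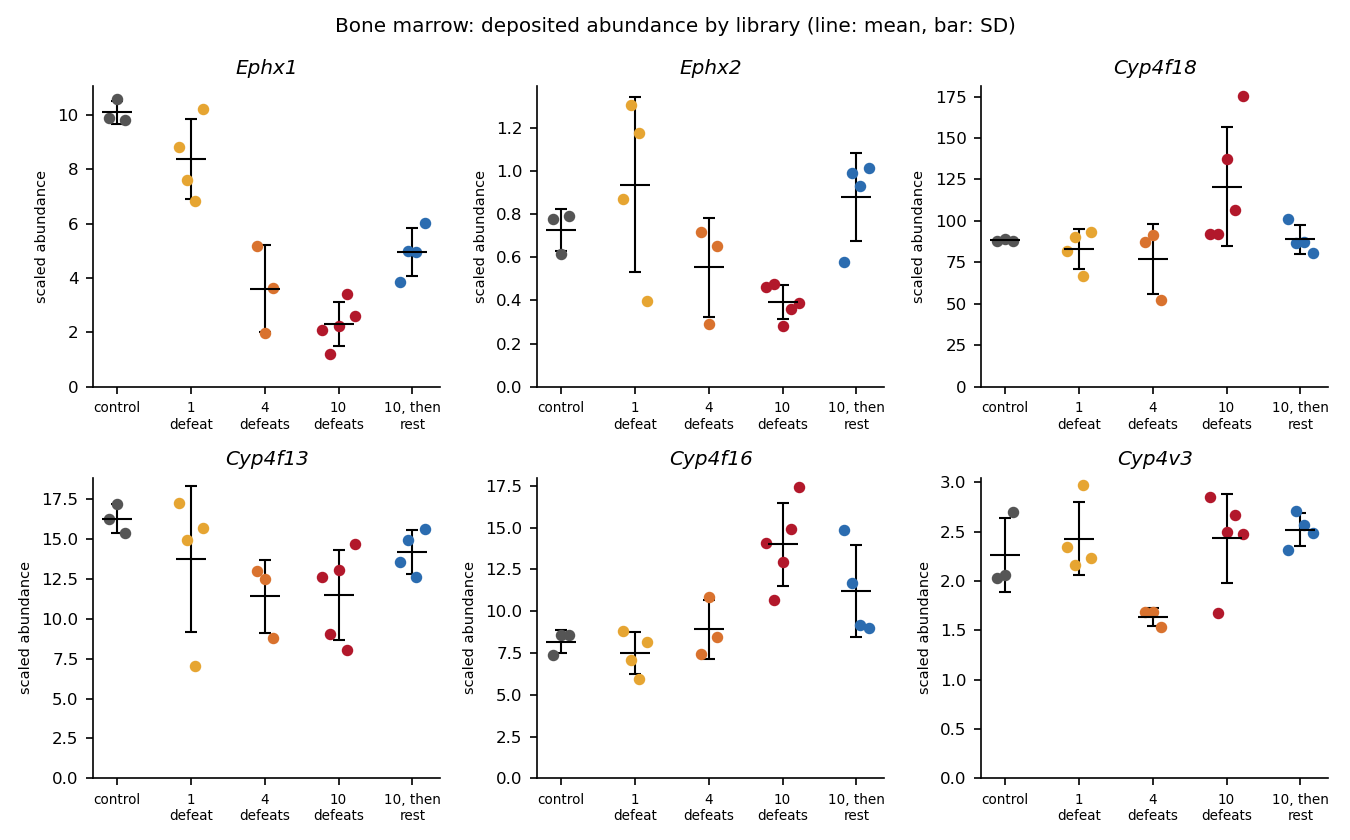
Scaled abundance of each member in every marrow library, by group from controls to rest, with 1 panel per gene, points for libraries, a line at the mean and a bar of 1 SD. Ephx1 falls to between 1.19 and 3.40 after 10 defeats and Cyp4f16 stands at 10.7 to 17.4 there, while Cyp4v3 stays between 1.53 and 2.98 in all groups.

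In bone marrow, Ephx1 fell with repeated defeat and stood higher again after the week of rest. It was at 9.87, 10.6 and 9.80 in controls, 8.80, 7.62, 6.84 and 10.2 after 1 defeat, 5.18, 1.99 and 3.64 after 4, 2.08, 1.19, 2.25, 3.40 and 2.60 after 10, and 3.86, 4.98, 4.96 and 6.02 after rest. All libraries after 4 or 10 defeats lay below all controls and all libraries with 1 defeat. Rested libraries lay above the 10-defeat ones and below the controls. In order of means (control, 1 defeat, rest, 4 defeats, 10 defeats), only the step between 1 defeat and rest separated neighbours without overlap.
Ephx1 fell by 1.33 ± 0.24 after 4 defeats (SE; limma adjusted p = 0.0032) and fell by 1.78 ± 0.22 after 10 (adjusted p = 6.57e-05). Both calls held in all 6 and 8 fits without 1 library (adjusted p up to 0.0234 and 0.00103). After 1 defeat it was at -0.26 ± 0.23 (adjusted p = 0.904). Rest against 10 defeats gave a rise of 0.87 ± 0.20 (adjusted p = 0.00778). Rest against controls gave -0.91 ± 0.23, not past the threshold over all genes (adjusted p = 0.125) but past it in a fit of these groups alone (0.0124).

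B cell markers moved in the same libraries as Ephx1. Their sum was 903 to 1285 in controls, 592 to 1005 after 1 defeat, 93.9 to 553 after 4, 19.8 to 266 after 10 and 319 to 525 after rest, and no marker of the list was at 0 in every library of a group. Of the 12 markers 9 were lower after 4 defeats and 12 after 10. Per 1000 units of that sum, a quotient chosen after the values were seen, Ephx1 came to 9.85 ± 1.41 in controls (SD, n = 3), 9.87 ± 1.58 after 1 defeat (n = 4), 15.8 ± 5.96 after 4 (n = 3), 23.3 ± 21.1 after 10 (n = 5) and 11.7 ± 0.292 after rest (n = 4). The highest library after 10 defeats was at 60.2 and the lowest at 9.74, and none lay below the control range of 8.24 to 10.8. Per 1000 units of macrophage markers, of which 7 of 11 tested were lower after 10 defeats, Ephx1 was at 10.2 ± 2.88 after 10 defeats (SD, n = 5) against 31.8 ± 7.65 in controls (n = 3). Other marker lists fell in the same comparison too, among them 10 of 12 T cell, 9 of 13 erythroid, 7 of 9 dendritic cell, 6 of 7 endothelial and 5 of 8 stromal markers tested. The part of any cell type in the result was not tested.

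**Figure D2:**
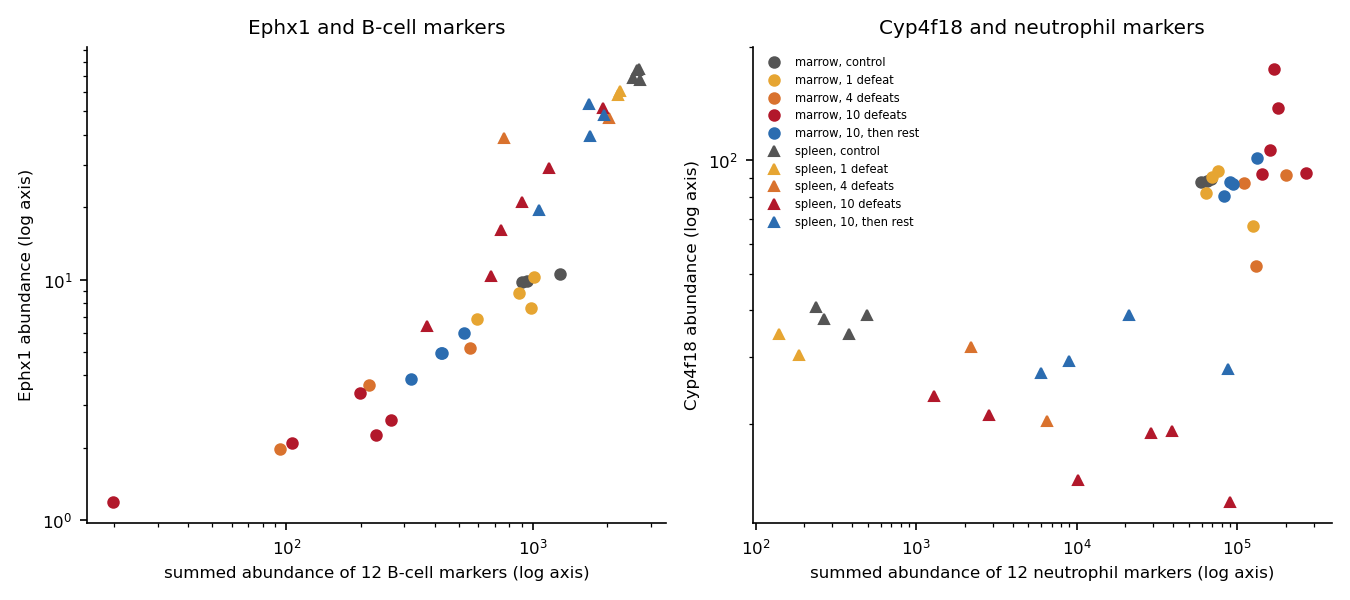
Left, Ephx1 abundance against the summed abundance of 12 B cell markers, and right, Cyp4f18 against 12 neutrophil markers, 1 point per library on log axes, circles for marrow and triangles for spleen, coloured by group. Ephx1 and the B cell sum are lowest together in marrow after 10 defeats, whereas in spleen Cyp4f18 is at 12.4 to 23.6 after 10 defeats with neutrophil sums of 1292 to 90195, against 34.6 to 40.9 in controls with sums of 238 to 490.

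Ephx2 was at 0.777, 0.616 and 0.790 in control marrow, 0.868, 1.30, 1.17 and 0.396 after 1 defeat, 0.716, 0.290 and 0.654 after 4, 0.4598, 0.478, 0.283, 0.362 and 0.389 after 10, and 0.577, 0.989, 0.931 and 1.01 after rest. The 10-defeat libraries lay below all controls and all rested libraries. At this level the change of -0.31 ± 0.15 after 10 defeats did not pass the limma test (adjusted p = 0.107). After rest it rose by 0.42 ± 0.14 against 10 defeats (adjusted p = 0.0403), a call lost in 7 of 9 fits without 1 library, with quantile normalization (0.12), with median-ratio rescaling (0.39) and without a filter. Ephx2 entered the marrow test only because 3 libraries reached the filter value of 1. They were D16 and D17 after 1 defeat (1.30 and 1.17) and D8 after rest (1.01), so 1 of them lies in the group called higher.

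Set against each other within a library, which removes the scaling, Ephx1 over Ephx2 was 2.50 to 9.37 in marrow after 10 defeats (n = 5), against 12.4 to 17.2 in controls (n = 3). In spleen the ratio was 2.39 to 10.8 after 10 defeats (n = 6), against 14.7 to 19.7 in controls (n = 4). In neither organ did the 10-defeat group overlap the controls. After 1 defeat the marrow ratio ran from 5.83 to 25.8 (n = 4), overlapping both ranges, and after 4 from 5.57 to 7.24 (n = 3). Spleens were at 12.2 and 13.2 after 1 defeat and at 6.57 and 11.1 after 4. The marrow ratio rests on an estimated 5.14 to 54.6 reads of Ephx2 a library. After rest the ratio was 5.03 to 6.69 in marrow (n = 4) and 9.35 to 18.5 in spleen (n = 4). This ratio, too, was chosen after the values were seen and was not tested.

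Cyp4f16 and Cyp4f13, which share a gene cluster, parted in marrow. Cyp4f16 was at 7.41, 8.55 and 8.60 in controls, 8.83, 7.07, 5.96 and 8.14 after 1 defeat, 7.43, 10.9 and 8.48 after 4, 14.1, 10.7, 12.9, 14.9 and 17.4 after 10, and 14.9, 11.7, 9.18 and 8.997 after rest. All libraries after 10 defeats or rest were above all controls. Cyp4f16 rose by 0.69 ± 0.17 after 10 defeats (limma adjusted p = 0.00379), and this held in all 8 fits without 1 library (0.62 to 0.78). Neutrophil marker sums rose in the same libraries, and per 1000 units of that sum Cyp4f16 was at 0.0814 ± 0.0261 after 10 defeats (SD, n = 5) against 0.128 ± 0.0157 in controls (n = 3), lower in every library. The part of neutrophils in the result was not tested. Cyp4f13 was at 16.2, 17.2 and 15.4 in controls, 17.3, 14.9, 7.06 and 15.7 after 1 defeat, 13.0025, 12.5 and 8.79 after 4, 12.6, 9.08, 13.1, 8.07 and 14.7 after 10, and 13.5, 14.9, 12.6 and 15.7 after rest. Its libraries after 4 or 10 defeats lay below all controls, but the changes of -0.49 ± 0.25 and -0.50 ± 0.23 did not pass (adjusted p = 0.165 and 0.0787). Neither gene passed for rest against controls (Cyp4f16 0.38 ± 0.18, adjusted p = 0.335).

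The ratio of Cyp4f16 to Cyp4f13 within a library does not depend on how libraries were scaled, and was chosen after the values were seen, so it is given without a test. It was 0.456, 0.496 and 0.558 in control marrow, 0.473 to 0.844 after 1 defeat (n = 4), 0.572 to 0.964 after 4 (n = 3), 0.990 to 1.85 after 10 (n = 5) and 0.574 to 1.10 after rest (n = 4). Every library after 10 defeats, and every rested one, lay above every control. In spleen the ratio was 0.855 to 1.07 in controls (n = 4), 0.792 and 1.03 after 1 defeat, 0.952 and 1.26 after 4, 0.783 to 1.502 after 10 (n = 6) and 1.09 to 2.001 after rest (n = 4), with overlap of the 10-defeat group and controls. All of the rested spleens lay above the controls.

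**Figure D3:**
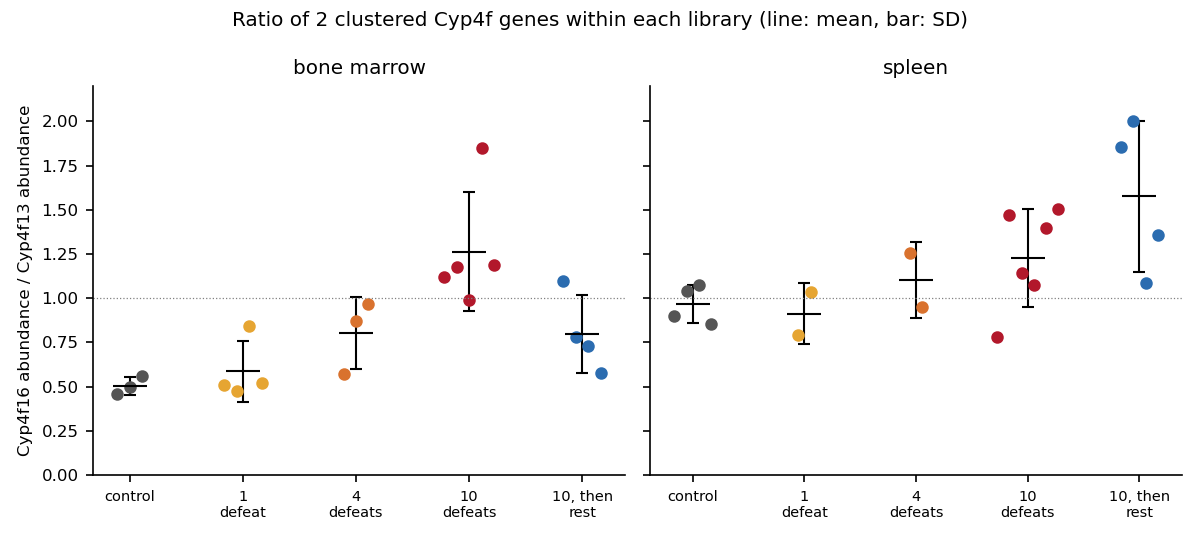
Cyp4f16 abundance divided by Cyp4f13 abundance in each library, marrow on the left and spleen on the right, by group with the mean as a line and 1 SD as a bar. Marrow ratios are 0.990 to 1.85 after 10 defeats, against 0.456 to 0.558 in controls, and rested spleens are at 1.09 to 2.001.

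Cyp4f18, a leukotriene B4 hydroxylase of neutrophils, was at 88.1, 89.1 and 87.9 in control marrow, 81.9, 90.3, 66.8 and 93.6 after 1 defeat, 87.1, 91.3 and 52.6 after 4, 91.9, 92.4, 138, 106 and 175 after 10, and 101, 86.7, 87.4 and 80.5 after rest. The 10-defeat libraries all lay above the controls, 2 of them by little, and the change of 0.40 ± 0.20 did not pass (limma adjusted p = 0.109), though it did with median-ratio rescaling (0.54, adjusted p = 0.0328). Neutrophil marker sums were 141679 to 266345 after 10 defeats against 59134 to 68452 in controls, with 11 of 12 markers higher. Per 1000 units of that sum Cyp4f18 was at 0.691 ± 0.246 after 10 defeats (SD, n = 5) against 1.38 ± 0.0939 in controls (n = 3), and no library overlapped. Cyp4v3 was at 2.03, 2.06 and 2.69 in controls, 2.35, 2.16, 2.98 and 2.23 after 1 defeat, 1.69, 1.68 and 1.53 after 4, 2.85, 1.67, 2.50, 2.67 and 2.48 after 10, and 2.32, 2.71, 2.57 and 2.48 after rest. Only the 4-defeat group stood clear of the controls, and its change of -0.30 ± 0.13 did not pass (adjusted p = 0.112).

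Counted over the 6 members, limma called none in marrow after 1 defeat (0 also at an unadjusted p under 0.05), where 0.00804% of 12442 genes were called in either direction. After 4 defeats 1 member fell, against 13% of all genes. After 10 defeats 1 rose and 1 fell, against 17.5% and 28.3%. Rest against controls called none (2 at an unadjusted p under 0.05) and 0% of all genes, and rest against 10 defeats called 2 higher, against 13.8%. Of these 2, Ephx2 lost its call in 7 of 9 fits without 1 library and without a filter. Ephx2 also passed the filter in part through a rested library. Such counts over 6 genes are no result about the members as a set.

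**Figure D4:**
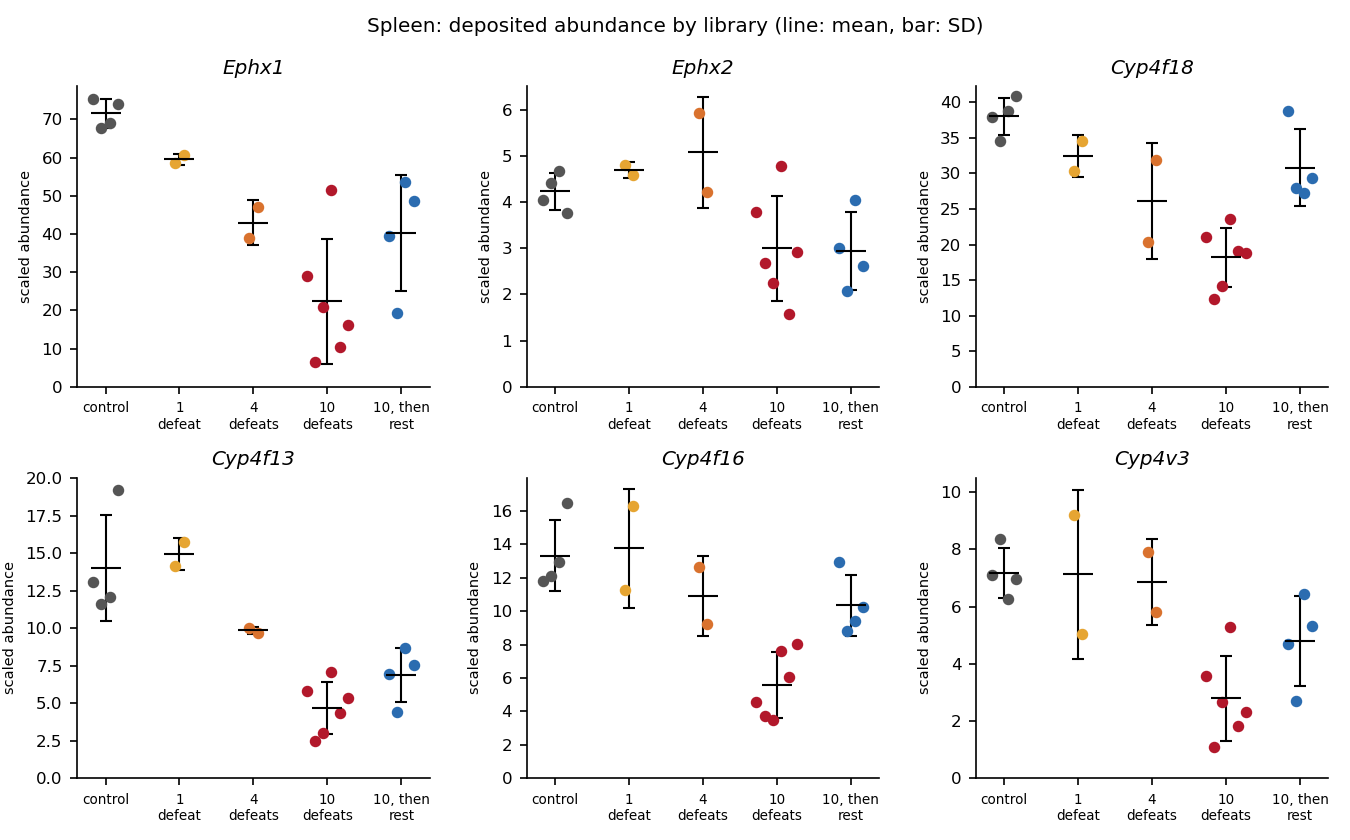
Scaled abundance of each member in every spleen library, by group from controls to rest, with points for libraries, a line at the mean and a bar of 1 SD. Ephx1 stands at 6.43 to 51.5 after 10 defeats, against 67.8 to 75.3 in controls, and Cyp4f13 after 10 defeats and after rest (2.52 to 8.66) stays under every control (11.6 to 19.2).

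In spleen, 5 of the 6 members fell after 10 defeats, where 41.9% of all 13945 genes did. Ephx1 was at 75.3, 67.8, 68.9 and 74.1 in controls, 58.5 and 60.6 after 1 defeat, 38.9 and 47.1 after 4, 6.43 to 51.5 (median 18.6, n = 6) after 10, and 39.4, 19.4, 53.6 and 48.5 after rest. Every stressed group lay below all controls, and the 4-defeat pair lay below the 1-defeat pair. After 10 defeats it fell by 1.92 ± 0.41 (SE; limma adjusted p = 0.00174), while -0.26 ± 0.56 after 1 defeat (adjusted p = 0.887) and -0.73 ± 0.56 after 4 (0.800) did not pass in groups of 2. Without the 5 libraries that stood apart, which leaves 2 libraries with 10 defeats (D4 and D5, at 51.5 and 29.1), the change was -0.87 ± 0.20 (limma adjusted p = 0.0129). After rest Ephx1 was at -0.91 ± 0.45 against controls (adjusted p = 0.189), or -0.60 ± 0.18 without library D2 and the other 4 (0.0385).
B cell marker sums in spleen were 2540 to 2714 in controls, 2208 to 2261 after 1 defeat, 764 to 2042 after 4, 370 to 1915 after 10 and 1058 to 1943 after rest, with all 12 markers lower after 10 defeats, or 4 of 12 without the 5 libraries. Per 1000 units of that sum, Ephx1 was at 27.0 ± 1.39 in controls (SD, n = 4), 26.5 and 26.8 after 1 defeat, 23.0 and 50.9 after 4, 21.6 ± 4.46 after 10 (n = 6) and 24.6 ± 5.54 after rest (n = 4). The groups overlapped in this quotient, the 10-defeat group only at its upper end. It ran from 15.3 to 26.9 after 10 defeats (median 22.4) and from 25.0 to 28.0 in controls. Per 1000 units of macrophage markers, of which 5 of 12 were lower after 10 defeats, the 10-defeat group and controls did not overlap. Ephx1 was at 19.3 ± 12.7 after 10 defeats (n = 6, highest 38.8) against 50.2 ± 4.64 in controls (SD, n = 4, lowest 45.3). The part of either cell type in the result was not tested.

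Ephx2 in spleen was at 4.05, 4.42, 4.68 and 3.76 in controls, 4.81 and 4.58 after 1 defeat, 5.92 and 4.22 after 4, 1.58 to 4.78 (median 2.80, n = 6) after 10, and 3.01, 2.08, 4.05 and 2.62 after rest. No group stood clear of the controls. The change after 10 defeats was -0.43 ± 0.20 (limma adjusted p = 0.077), with -0.97 (called, 0.0447) at equal totals, 0.071 with quantile normalization and 0.0099 ± 0.18 without the 5 libraries.

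Of the hydroxylases, Cyp4f13 fell by 1.43 ± 0.24 after 10 defeats (limma adjusted p = 0.000368). It was at 13.1, 11.6, 12.1 and 19.2 in controls, 14.2 and 15.7 after 1 defeat, 10.0 and 9.68 after 4, 2.52 to 7.09 (median 4.84, n = 6) after 10, and 6.97, 4.41, 8.66 and 7.55 after rest. The groups with 4 defeats, 10 defeats and rest were all below the controls, and 10 defeats and rest overlapped. Cyp4f13 was the only member called between rest and controls (-0.93 ± 0.26, adjusted p = 0.0406), a call lost in 6 of 8 fits without 1 library and with 4 other settings.
Cyp4f16 was at 11.8, 12.1, 12.9 and 16.4 in controls, 11.2 and 16.3 after 1 defeat, 12.6 and 9.22 after 4, 3.46 to 8.02 (median 5.30, n = 6) after 10, and 12.9, 8.81, 9.42 and 10.2 after rest. The 10-defeat libraries lay below every other spleen library. Cyp4f16 fell by 1.17 ± 0.22 (limma adjusted p = 0.000727).
Cyp4f18 was at 37.9, 34.6, 38.8 and 40.9 in controls, 30.4 and 34.5 after 1 defeat, 20.3 and 31.9 after 4, 12.4 to 23.6 (median 18.97, n = 6) after 10, and 38.8, 27.9, 27.2 and 29.4 after rest. All libraries with 10 defeats lay below all controls and all rested ones, and Cyp4f18 fell by 1.05 ± 0.19 (limma adjusted p = 0.000527). Neutrophil markers went the other way in the same libraries, with 10 of 12 higher and sums of 1292 to 90195 after 10 defeats against 238 to 490 in controls. Per 1000 units of that sum, Cyp4f18 was at 121 ± 43.7 in control spleens (SD, n = 4) and 4.72 ± 7.17 after 10 defeats (n = 6). In control marrow this quotient was 1.38 ± 0.0939 (SD, n = 3). The part of neutrophils in the Cyp4f18 value was not tested. Cyp4v3 was at 7.10, 8.36, 6.25 and 6.97 in controls, 9.20 and 5.05 after 1 defeat, 7.91 and 5.80 after 4, 1.10 to 5.28 (median 2.49, n = 6) after 10, and 4.70, 2.69, 6.45 and 5.30 after rest. It fell by 1.19 ± 0.27 after 10 defeats (limma adjusted p = 0.00237), a call lost without the 5 libraries (-0.60 ± 0.23, adjusted p = 0.0707).

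The median change over all genes in spleen after 10 defeats was -0.36. With median-ratio rescaling, which brings that median to -0.01, the 5 members were at -1.46 (Ephx1), -1.02 (Cyp4f13), -0.83 (Cyp4v3), -0.75 (Cyp4f16) and -0.60 (Cyp4f18), all still called. Without the 5 libraries Cyp4f16 was at -1.04 ± 0.23, Cyp4f13 at -0.99 ± 0.19 and Cyp4f18 at -0.74 ± 0.19, all called (adjusted p up to 0.0174). Erythroid marker sums reached 80067 to 1241830 after 10 defeats against 88866 to 204507 in controls, with 12 of 13 markers higher. Lower in the same comparison were 11 of 12 T cell, 9 of 10 dendritic cell, 8 of 9 stromal and 7 of 8 endothelial markers, beside all 12 B cell markers. The part of these cell types in the lower values was not tested. After 1 defeat limma called no member (0 at an unadjusted p under 0.05) and 0.688% of all genes, and after 4 defeats none (1 at an unadjusted p under 0.05) and 0.043%. Rest against controls called 1 member lower, against 4.24%. Rest against 10 defeats called none (5 at an unadjusted p under 0.05) and 0.567% of all genes. In that comparison Cyp4f18 was at 0.75 ± 0.19 (limma adjusted p = 0.0811) and Cyp4f16 at 0.83 ± 0.22 (0.0862), and without spleen library D4 of the 10-defeat group 4 members were called. The 0.567% belongs to the fit of all spleen libraries and is no share for that count. The share of all genes called without D4 is not given here, so the count is no result about the members.

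**Figure D5:**
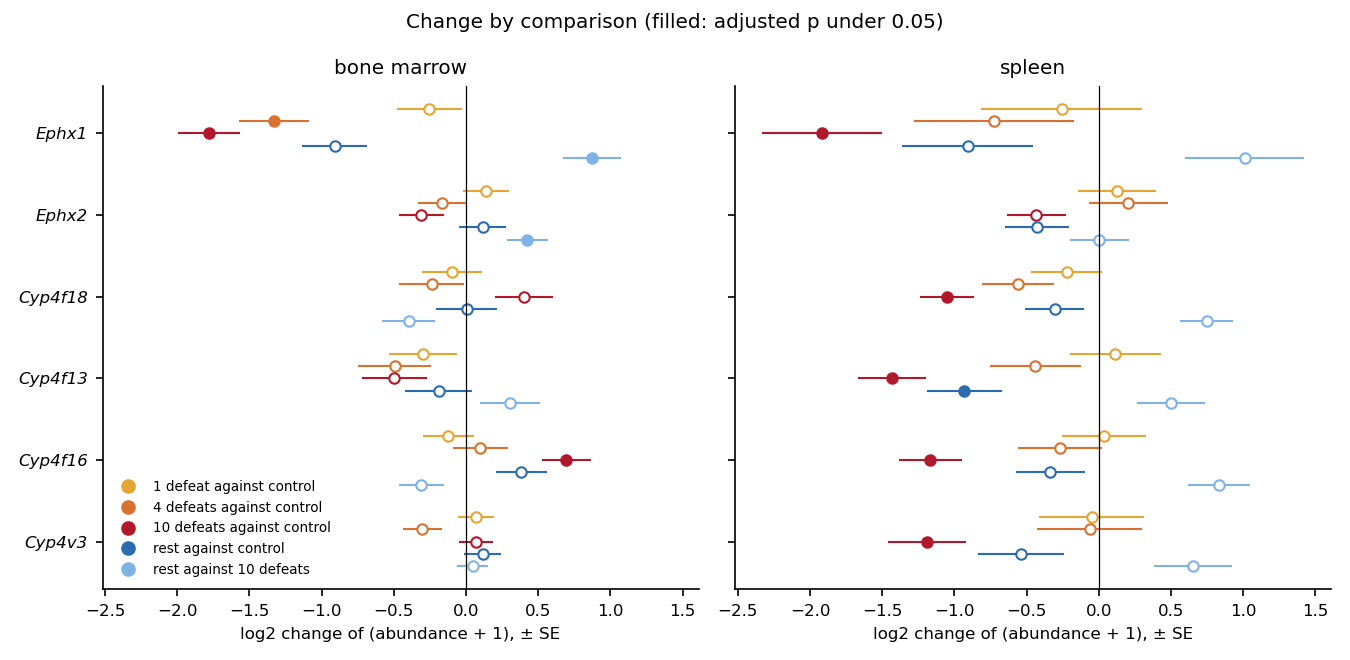
Log2 change of abundance + 1 with its SE for each member in 5 comparisons, marrow on the left and spleen on the right, filled where the limma adjusted p is under 0.05. After 10 defeats Ephx1 is at -1.78 in marrow and -1.92 in spleen, while Cyp4f16 is at 0.69 in marrow and -1.17 in spleen.

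Whether 10 defeats acted alike in both organs was tested as the effect in spleen minus the effect in marrow in 1 model of all 37 libraries. Cyp4f16 gave -1.86 ± 0.28 (SE; limma adjusted p = 9.9e-06), Cyp4f18 -1.45 ± 0.28 (0.000152), Cyp4v3 -1.26 ± 0.31 (0.00182) and Cyp4f13 -0.93 ± 0.33 (0.0249), so the response of all 4 hydroxylases was lower in spleen. In all, 4 of 6 members were called lower, where 27% of 14513 genes were, and the median over all genes was -0.22. The hydrolases did not differ past the threshold, Ephx1 at -0.13 ± 0.50 (adjusted p = 0.845) and Ephx2 at -0.12 ± 0.25 (0.714), which with these SE does not show that they acted alike. Without the 5 spleen libraries Ephx1 turned to 0.91 ± 0.32 (limma adjusted p = 0.0282), a smaller fall in spleen, Cyp4v3 stood at -0.67 ± 0.23 (0.0297), and Cyp4f13 was no longer called (-0.49 ± 0.32, 0.254). That fit holds only D4 and D5 of the spleens with 10 defeats. They had the highest Ephx1 of that group (51.5 and 29.1) and its lowest erythroid marker sums (80067 and 207837). The Ephx1 difference thus rests on the 10-defeat spleens that changed least. Cyp4f16 (-1.73 ± 0.28) and Cyp4f18 (-1.14 ± 0.29) were still called. Cyp4f13 also lost its call without C4 of either tissue. For rest against controls no member differed between organs (limma, 2 at an unadjusted p under 0.05), and 3.65% of all genes did.

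Most other enzymes of the same families were listed at low values, as Ephx2 was in marrow. Of 16 further Cyp4 genes 13 stayed under 1 in every library, and of 27 epoxygenase genes 22 did, as did the hydrolases Ephx3 and Ephx4. In spleen after 10 defeats, Cyp4b1, a family member that acts on foreign compounds, rose by 1.54 ± 0.51 (limma adjusted p = 0.0172), while Cyp4f17 fell by 0.49 ± 0.15 and Cyp4f37, which reached 1 in only 3 libraries, fell by 0.72 ± 0.21. Those 3 were control or 1-defeat spleens, and spleens with 10 defeats reached at most 0.715. Cyp4f37 thus passed the filter only through groups where it was high, which favoured a call of a fall. Among all genes of that comparison 16.8% rose and 41.9% fell. Of the genes listed as epoxygenases, Cyp1b1 and Cyp2d22 fell in both organs. Their mean values over the marrow libraries were low, 0.832 and 1.16, near the filter value of 1. The listed Cyp2c genes stayed under 1 in every library, and of the Cyp2j genes only Cyp2j6 reached 1, in 1 library. Epoxide synthesis was not measured. Cyp1b1 was at -1.29 ± 0.28 in spleen (adjusted p = 0.00191) and at -0.67 ± 0.22 in marrow (0.0215), and Cyp2d22 was at -1.11 ± 0.30 in spleen (0.00616) and at -0.63 ± 0.21 in marrow (0.0203). Without the 5 spleen libraries none of these spleen changes passed (limma adjusted p of 0.0688 to 0.606, 3 at an unadjusted p under 0.05), with Cyp4b1 at 0.29 ± 0.40, Cyp4f37 at -0.43 ± 0.27, Cyp4f17 at -0.56 ± 0.21, Cyp1b1 at -0.97 ± 0.36 and Cyp2d22 at -0.83 ± 0.32.

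The leukotriene pathway draws on the same arachidonic acid. Lta4h, which opens the epoxide of leukotriene A4 to give leukotriene B4, stood at 335 to 626 (median 341, n = 5) in marrow after 10 defeats against 192 to 197 (n = 3) in controls, a change of 1.01 ± 0.21 (limma adjusted p = 0.00125). Over Cyp4f18, which removes its product, Lta4h gave a ratio of 1.95 to 6.78 in marrow after 10 defeats (n = 5) and 2.92 to 7.09 after 4 (n = 3), against 2.18 to 2.22 in controls (n = 3). In spleen Lta4h itself overlapped the controls, at 32.5 to 49.5 after 10 defeats (n = 6) against 39.5 to 45.2 (n = 4). Cyp4f18 fell there, and the ratio was 1.83 to 3.596 after 10 defeats, against 1.08 to 1.19 in controls. In this ratio spleens after 10 defeats did not overlap the controls, and marrow library D10 lay under the marrow controls. This ratio was chosen after the values were seen and was not tested.
Of 13 leukotriene genes tested in marrow after 10 defeats 7 rose and 1 fell (median 0.75 against -0.13 over all genes, of which 17.5% rose and 28.3% fell). Alox5ap, the activating protein of 5-lipoxygenase, was at 1.54 ± 0.22 and the dipeptidase Dpep2 at 1.35 ± 0.21. In spleen 3 of 11 rose and 3 fell (median -0.04 against -0.36, with 16.8% of all genes higher and 41.9% lower), and limma called none without the 5 libraries (1 at an unadjusted p under 0.05).

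Other enzymes break leukotriene B4 down further. In marrow after 10 defeats 4 of 6 rose and 1 fell, where 17.5% and 28.3% of all genes did, with Ptgr1, a leukotriene B4 dehydrogenase, at 0.99 ± 0.18 and the aldehyde dehydrogenases Aldh3b1 and Aldh2 at 0.91 ± 0.19 and 0.72 ± 0.17. In spleen 2 of 6 rose and 3 fell, where 16.8% and 41.9% of all genes did, with Ptgr1 at 1.37 ± 0.29, Aldh3a2 at -0.91 ± 0.17 and Aldh2 at -1.25 ± 0.32. Without the 5 libraries Ptgr1 (0.99 ± 0.30) and Aldh3a2 (-0.51 ± 0.14) were still called and Aldh2 was not (-0.43 ± 0.20). The spleen effect minus the marrow effect was called for 5 of the 6 genes, 4 lower and 1 higher, where 27% and 16.1% of all genes were, and for 4 without the 5 libraries. For Aldh2 it was -1.97 ± 0.38 (limma adjusted p = 0.000185), or -1.15 ± 0.26 without them (0.00161).

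Cytochromes P450 work with partner proteins, some of which pass them electrons, and 6 partners were tested. In marrow after 10 defeats 3 fell, Cyb5r3 at -0.73 ± 0.16, Cyb5a at -0.60 ± 0.17 and Pgrmc2 at -0.37 ± 0.09, where 28.3% of all genes fell. In spleen 1 rose, Cyb5a at 1.37 ± 0.37, and 2 fell, Por (the P450 reductase) at -0.91 ± 0.26 and Cyb5b at -0.90 ± 0.21 (16.8% and 41.9% of all genes rose and fell), and limma called none without the 5 libraries (1 at an unadjusted p under 0.05). Of 20 genes of the xenobiotic and antioxidant response, a programme to which Ephx1 belongs as a known target of the factor Nrf2, 7 rose and 3 fell in spleen after 10 defeats, where 16.8% and 41.9% of all genes did. The counts were the same without the 5 libraries. Gclm, a subunit of the enzyme that starts glutathione synthesis, was at 2.60 ± 0.32 and the quinone reductase Nqo1 at 3.06 ± 0.38, or 2.14 ± 0.42 and 2.13 ± 0.30 without the 5 libraries, while Ephx1 fell in the same comparison. In marrow 6 of 19 rose and 8 fell (17.5% and 28.3% of all genes), with Gclc, the other subunit, at -1.54 ± 0.23. Of 10 nuclear receptors 8 fell in spleen after 10 defeats and none rose (41.9% and 16.8% of all genes), with Rxra at -1.67 ± 0.45, and limma called none without the 5 libraries (3 at an unadjusted p under 0.05). In marrow 2 rose and 2 fell (17.5% and 28.3% of all genes), with Pparg at -0.64 ± 0.18 and Rara at 0.47 ± 0.15.

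For each member, the genes with the most similar pattern were sought by the smaller of its correlations over 19 marrow and 18 spleen libraries of the log2 values, among 9690 candidates (9691 for Ephx2). Libraries share their scaling and their treatment groups, so r is a description. Ephx1 was matched most closely, by S1pr1 (r = 0.985 in marrow and 0.982 in spleen), Scd1 (0.980 and 0.969) and St6gal1 (0.968 and 0.976). Cyp4f13 followed, with Vamp2 (0.931 and 0.949), Srrm2 and Slc25a22. The best match was Nrros for Cyp4f16 (0.864 and 0.887), Myo9b for Cyp4f18 (0.857 and 0.852), Fmnl2 for Cyp4v3 (0.830 and 0.937) and Mmp14 for Ephx2 (0.810 and 0.887).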

How the data were processed

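The submitters' processing notes name kallisto 0.46.1, sleuth and the build GRCm38, with no roles. The deposited values are a signal per gene and library, an abundance that the authors scaled per library; which quantity and scaling is not stated. They are not read counts, so no count test was run. Sequencing depth was inferred from how low values step in 9751 single-transcript genes, assuming a fragment of 200 bp. Groups follow the labels. The members and lists were chosen with earlier results of these data known.

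From the deposited table, log2(value + 1) was fitted with limma 3.58.1 in R 4.3.3 (trended, robust variance prior), 1 model per tissue over 5 groups and 1 over all 37 libraries. Tested were genes at 1 or more in 3 marrow libraries, 2 spleen libraries or 2 of all libraries (12442, 13945 and 14513). Named are the 6 members, genes with the smallest adjusted p in each list (up to 3 per comparison), and the genes most like each member (up to 3). The libraries are separate samples by their labels, which do not say that each is 1 animal, so p-values measure only the spread between these samples. Alternatives were other scalings, a pseudocount of 0.1, no filter, the compared groups alone, a block for shared numbers and leaving out each library. Leaving out 5 spleen libraries and removing the length trend were chosen after seeing the data. The fit was tested on simulated data with known changes.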

Additional observations from a re-analysis of the deposited data

Results flagged for a closer look

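The effect of 10 defeats differed between organs, by the test of the difference itself, for all 4 hydroxylases. Among all 14513 genes 27% were called lower in this test and 16.1% higher, and the median was -0.22. On the log2 scale, the spleen effect minus the marrow effect was -1.86 for Cyp4f16 (limma adjusted p = 9.9e-06), -1.45 for Cyp4f18 (0.000152), -1.26 for Cyp4v3 (0.00182) and -0.93 for Cyp4f13 (0.0249). For Cyp4f16 the libraries moved apart fully, with all after 10 defeats above controls in marrow and all below controls in spleen. Without the 5 spleen libraries that stood apart the differences were -1.73, -1.14, -0.67 and -0.49, the last no longer called. That fit holds only D4 and D5 of the spleens with 10 defeats. No single library lay far from the rest of its group in any of 36 group and member combinations of 4 to 6 libraries, by the gap to its nearest neighbour over the range of the group; chance would flag about 1 in 20.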

How the results depend on the processing

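The calls of Ephx1 and Cyp4f16 in marrow after 10 defeats and of Cyp4f18, Cyp4f13, Cyp4f16 and Ephx1 in spleen kept their direction and their side of the threshold under every alternative run. Of the values called in any comparison, 332 of their alternatives kept the call and 28 lost it. Of those not called, 865 stayed so, 15 passed the threshold and 56 changed sign. In no case was the cause tested. With the compared groups alone, 1 member was called for marrow rest against controls (main count 0). Without a filter, 1 was called for marrow rest against 10 defeats (main count 2). For spleen rest against controls (main count 1), 0 were called with median-ratio rescaling, equal totals, a pseudocount of 0.1 or no filter, and 2 without the 5 libraries. With equal totals, 3 differed between control spleen and marrow (main count 5). Leaving out 1 library in turn gave 1 to 3 calls for marrow rest against 10 defeats, 0 to 1 for spleen rest against controls and 0 to 4 for spleen rest against 10 defeats. The share of all genes called in each of these settings is not given here. The counts therefore describe how member calls depend on processing and are no result about the members. Whether shared numbers mark shared animals is not known, and the values do not settle it: over 15 pairs the correlation of deviations ran from -0.20 to 0.35, and 5 were over 0.1. A replicate block left 5 members called between organs in controls, 4 for the difference in the 10-defeat effect and 0 for that in the rest effect, as without it.

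Values that changed sign were all uncalled in the main fit. With quantile normalization these were Ephx2 at 0.16 and Cyp4v3 at 0.016 in marrow after 4 defeats, Ephx2 at 0.053 in marrow and 0.071 in spleen after 10, Cyp4f18 at -0.049 in marrow after rest against controls, Cyp4f16 at -0.082 in spleen after 1 defeat, and Cyp4v3 at -0.20 in marrow and Ephx2 at -0.23 in spleen for rest against 10 defeats. The organ difference of the effect then was 0.13 for Ephx2 (10 defeats) and -0.077 for Ephx1 (rest). With median-ratio rescaling Cyp4f16 was at -0.077 in spleen after 1 defeat, Cyp4v3 at -0.029 in marrow and Ephx2 at -0.16 in spleen for rest against 10 defeats, and the difference of the 10-defeat effect was 0.081 for Ephx1 and 0.090 for Ephx2. With equal totals Cyp4v3 was at 0.025 and 0.18 in spleen after 1 and 4 defeats, Cyp4f13 at 0.0065 for control spleen against marrow, and Ephx1 at -0.75 for the difference of the rest effect. With a pseudocount of 0.1 the difference of the 10-defeat effect was 0.17 for Ephx1 and 0.19 for Ephx2. With the length trend removed Cyp4f18 was at -0.017 in marrow after rest against controls, Ephx2 at -0.040 in spleen for rest against 10 defeats, and Ephx1 at -0.082 for the difference of the rest effect. With the replicate block that last value was -0.015. Without the 5 spleen libraries Ephx2 was at 0.0099 after 10 defeats and -0.33 for rest against 10 defeats in spleen, and the difference of the 10-defeat effect was 0.91 for Ephx1 (called) and 0.32 for Ephx2. Leaving out 1 library gave ranges that include both signs for Cyp4f18 in marrow after 1 defeat (-0.16 to 0.0021), 4 defeats (-0.38 to 0.013) and rest against controls (-0.059 to 0.050), for Cyp4f16 in marrow after 4 defeats (-0.037 to 0.21) and spleen after 1 (-0.22 to 0.28), and for Cyp4v3 in marrow after 1 defeat (-0.0011 to 0.17) and for rest against 10 defeats (-0.042 to 0.089). The same held for Cyp4v3 in spleen after 1 defeat (-0.43 to 0.33) and 4 (-0.26 to 0.13), for Ephx2 in spleen for rest against 10 defeats (-0.12 to 0.12), and for Ephx1 in the organ difference of the 10-defeat effect (-0.43 to 0.14) and the rest effect (-0.16 to 0.31).

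Depth limits Ephx2 in marrow, whose lowest library held an estimated 5.14 reads, and pairs of spleens after 1 or 4 defeats allow only large changes to pass.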
